A study of Mus musculus with 6 samples.

Results

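The 6 whole-liver RNA libraries of the series were sorted here by their own level of Saa1, the transcript of serum amyloid A1, a plasma protein that the liver makes in large amounts during inflammation. The livers were chosen by these measured values and by no label: Saa1 was expressed as CPM, its raw count scaled to the total count of the library, and a liver was called high at 200 CPM or more. This gave 3 high livers (WT replicates 1 and 3, KO replicate 2) and 3 low livers (WT replicate 2, KO replicates 1 and 3) of 6 in all. Saa1 stood at 399, 561 and 1859 CPM in the high livers and at 53.2, 58.5 and 85.3 CPM in the low livers, so the livers nearest the threshold had 399 and 85.3 CPM. The genes described below are the 17015 tested genes outside a list of 69 acute phase genes, 68 of which were tested.

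All mice were males with a floxed Ephb2 gene, the gene of a receptor for ephrin-B ligands. The 3 WT animals had no Cre, and the 3 KO animals carried Pdgfrb-CreERT2, a tamoxifen-inducible recombinase driven by the Pdgfrb promoter, which is active in hepatic stellate cells and other mesenchymal cells. Both genotypes received tamoxifen for 5 days at 8 to 10 weeks of age. They were then fed for 8 weeks the CDAA high-fat diet, which lacks choline, takes its amino acids from a defined mixture and supplies 45% of calories from fat, 1% cholesterol and 0.1% methionine. This diet is used to model steatohepatitis with fibrosis. No group carried Cre without floxed Ephb2, no group was fed another diet, and the labels name no infection, injection or other stimulus that would set the high livers apart. The labels give the replicates numbers only, so a p-value for genotype measures the spread among these livers, part of which may be technical.

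In the acute phase response, cytokines such as interleukin-6 and interleukin-1 act on hepatocytes through STAT3, NF-kB and C/EBP factors. Hepatocytes then secrete more of some plasma proteins, among them serum amyloid A, orosomucoid, lipocalin-2 and fibrinogen. The same cytokines are known to lower transcripts of drug-metabolizing cytochrome P450 enzymes, and the response is often accompanied by neutrophils in the liver.

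Because the libraries were sorted by one of their own transcripts, every difference between high and low livers below is a description of these 6 animals and tests no condition. Levels are CPM scaled by TMM (trimmed mean of M-values). Values for the high livers are always in the order WT replicate 1, WT replicate 3 and KO replicate 2, and those for the low livers in the order WT replicate 2, KO replicate 1 and KO replicate 3. Differences are high minus low on the log2 scale, from a fit with genotype as a second term. A gene has no overlap when all 3 high livers lie above, or all 3 below, the 3 low livers.

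Libraries held 21160690 to 26339251 counts. Mitochondrially encoded genes made up 2.04 to 3.19% of a library and its 20 most abundant genes 17.8 to 20.4%. On the first principal component of log2 levels, with 43.1% of the variance, the high livers lay between -48.0 and -9.55 and the low livers between 18.4 and 29.3, and WT replicate 3 was the farthest of the high livers. The hepatocyte marker Alb, also on the acute phase list, lay lower in the high livers without overlap. It stood at 40453, 38946 and 32565 CPM against 41819.5, 42996 and 40639 CPM. The hepatocyte markers Ttr, Apoa1 and Serpina1c overlapped. The pancreas markers Prss2 and Cpa1 stayed below 0.24 CPM. The pancreas marker Cela2a overlapped, at 0.644, 0.909 and 0.872 CPM in the high and 0.336, 0.654 and 0.267 CPM in the low livers. Cela1, also listed for pancreas, lay higher without overlap, at 6.29, 7.56 and 6.98 against 5.42, 6.10 and 5.75 CPM. Ephb2, the targeted gene, stood at 9.46, 12.4 and 8.87 CPM in the high and 8.28, 6.01 and 6.95 CPM in the low livers. The genotypes overlapped in Ephb2, and the high and low livers did not.

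The other 3 marker transcripts of the response separated the livers as Saa1 did. Saa2, a near-identical neighbour of Saa1 with which reads may be shared, stood at 278, 508 and 1842 CPM in the high and 26.1, 30.7 and 44.9 CPM in the low livers. Orm2, an orosomucoid, stood at 548, 717 and 1083 against 76.1, 53.9 and 76.03 CPM. Lcn2, the iron-siderophore binding protein lipocalin-2, stood at 1145, 2285 and 2175 against 246, 233 and 274 CPM. KO replicate 2 was the highest liver for Saa1, Saa2 and Orm2 but not for Lcn2, for which WT replicate 3 was highest.

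**Figure D1:**
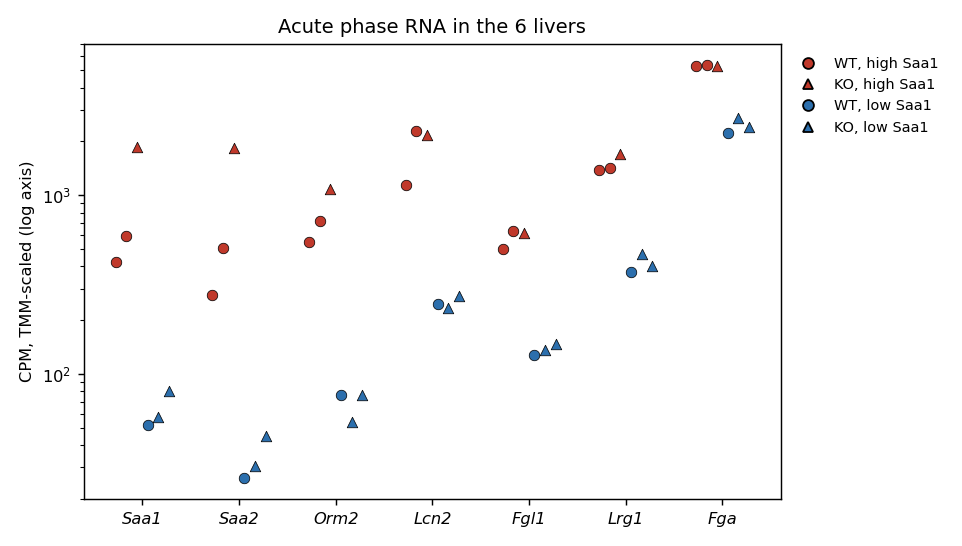
TMM-scaled CPM on a log axis (vertical) of 7 acute phase transcripts (horizontal) in each of the 6 livers, with circles for WT, triangles for KO, red for high and blue for low Saa1. For each transcript the 3 red points lie above the 3 blue ones, and the high livers differ among themselves most for Saa1 and Saa2, with KO replicate 2 at 1857 and 1842 CPM.

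Within the acute phase list, 47 of 68 tested genes had no overlap and 24 were called by edgeR, of which 23 were higher and 1 lower. Fgl1, a hepatocyte-secreted fibrinogen-like protein, differed by 2.13 (SE 0.13) and Lrg1, a leucine-rich plasma glycoprotein, by 1.95 (SE 0.12). Genes listed as negative acute phase reactants did not lie lower as a list, with 4 of 14 members higher and 2 lower without overlap and a median difference of -0.04. Trf, which encodes transferrin, stood at 25868, 35914 and 28069.5 CPM in the high livers and 15435, 16321 and 14889 CPM in the low livers. Serpina6, corticosteroid-binding globulin, lay the other way, at 87.6, 64.6 and 44.6 against 152, 169 and 142 CPM.

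Outside the acute phase list the high livers had more RNA of the neutrophil genes Prtn3, S100a8 and S100a9, of the steroid enzymes Cyp17a1 and Sult1e1 and of the methyl-donor enzyme Bhmt. They had less RNA of the cytochrome P450 enzymes Cyp2c55 and Cyp3a11, of the matrix genes Eln and Col4a4 and of the keratin Krt23. edgeR's quasi-likelihood test called 109 of the 17015 genes at a Benjamini-Hochberg adjusted p under 0.05, 77 higher and 32 lower, and 107 of the 109 had no overlap. Over all 17083 genes tested the call took 0.779% of genes, 0.585% higher and 0.193% lower. Nothing is read from these counts, since the sorting fixed the direction of the genes that vary with Saa1. Of the 109 genes, 57 differed at least 2-fold, 105 were protein coding and 27 belonged to any of the gene lists used here.

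The count of calls rests on single livers. It was 0 without KO replicate 2, the sole high KO liver, and 3 without WT replicate 2, the sole low WT liver. Without KO replicate 1 it was 11, without KO replicate 3 it was 23, without WT replicate 3 it was 333 and without WT replicate 1 it was 535. All 109 genes were among the calls made without WT replicate 1 and among those made without WT replicate 3.

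Without regard to a call, 3357 genes outside the list had no overlap, 1773 higher and 1584 lower. Over all genes tested 10.6% lay higher without overlap and 9.29% lower, so a list of genes is read against those shares below. With 1 liver left out fewer livers have to stand apart, and the shares over all genes were 13.9 to 17.4% higher and 13 to 18% lower. Scaled by library size alone, the 3357 became 4033, with 831 higher and 3202 lower, and the median difference over all genes moved from -0.01 to -0.10.

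The 14 largest differences in the higher direction, among called genes with an established symbol and a mean of at least 2 CPM, held genes of neutrophil granules and cytosol and of myeloid chitinase-like proteins. Prtn3, the serine protease proteinase 3 of neutrophil granules, stood at 14.6, 17.5 and 15.5 CPM in the high livers and 0.588, 1.13 and 0.669 CPM in the low livers, a difference of 4.35 (SE 0.24). It had the largest difference of the 28 genes named by this rule. The difference was 4.57 within WT and 4.02 within KO. Prtn3 (ENSMUSG00000057729) lies on chromosome 10, 79874476 to 79883174, plus strand, of GRCm38.

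S100a8 and S100a9 encode the paired calcium-binding proteins that form calprotectin, the main cytosolic protein of neutrophils. S100a9 stood at 17.04, 39.3 and 25.2 against 3.70, 6.45 and 5.21 CPM, a difference of 2.48 (SE 0.34). S100a8 stood at 11.9, 30.4 and 22.3 against 4.28, 5.71 and 4.50 CPM, a difference of 2.21 (SE 0.34). Chil3, the chitinase-like protein Ym1 of myeloid cells, stood at 10.5, 29.2 and 17.2 against 1.89, 2.83 and 1.87 CPM, a difference of 3.10 (SE 0.41). For these 3 genes WT replicate 3 was the highest liver, and for Prtn3 the 3 high livers lay within 1.20-fold of each other. Chil1, another chitinase-like protein, stood at 2.43, 2.06 and 4.55 against 0.966, 0.915 and 1.25 CPM.

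Another group of the higher genes encodes steroid and lipid enzymes. Cyp17a1, the steroid 17-alpha-hydroxylase, stood at 17.3, 55.96 and 20.6 CPM in the high and 2.77, 1.44 and 1.87 CPM in the low livers, a difference of 3.68 (SE 0.45). Sult1e1, the estrogen sulfotransferase, stood at 10.4, 8.61 and 11.4 against 1.85, 0.436 and 1.38 CPM, a difference of 3.01 (SE 0.38). Acacb, the acetyl-CoA carboxylase whose malonyl-CoA product inhibits fatty acid import into mitochondria, stood at 61.6, 55.3 and 37.9 against 15.2, 13.9 and 16.04 CPM, a difference of 1.64 (SE 0.15). Having no overlap, each of these genes was bound to set the high livers apart within both genotypes. The differences within WT and KO were 3.45 and 3.58 for Cyp17a1, 2.30 and 3.71 for Sult1e1, and 1.94 and 1.34 for Acacb.

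The other 6 higher genes were of varied kinds. Syne4, a nesprin that links the nuclear envelope to kinesin, differed by 1.91 (SE 0.24), at 8.57, 7.56 and 6.86 against 1.64, 1.87 and 2.67 CPM. Myom3, a myomesin of the sarcomere, stood at 2.97, 2.92 and 4.40 against 0.546, 0.610 and 0.847 CPM and Sync, the intermediate filament protein syncoilin, at 2.48, 4.64 and 5.92 against 1.302, 1.13 and 1.47 CPM. Both are best known from muscle. Igdcc4, an immunoglobulin superfamily membrane protein, stood at 26.1, 38.4 and 36.2 against 8.99, 7.23 and 12.7 CPM. Myo15b, an unconventional myosin, stood at 9.41, 21.4 and 13.1 against 3.02, 3.75 and 3.61 CPM. Wfdc21, a whey acidic protein domain gene, had the smallest SE of the 14, at 127, 104 and 109.7 against 37.3, 31.2 and 38.2 CPM and a difference of 1.65 (SE 0.12).

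Drug- and steroid-metabolizing enzymes and matrix genes led the lower direction. Cyp2c55, a cytochrome P450, stood at 2.28, 1.82 and 1.74 CPM in the high and 11.01, 6.97 and 9.31 CPM in the low livers, a difference of -2.33 (SE 0.20). Cyp3a11, the main mouse counterpart of human CYP3A4, stood at 1749, 1070.3 and 1318 against 4147, 4134 and 2990.2 CPM, a difference of -1.50 (SE 0.22). Cyp3a59 of the same family stood at 8.96, 6.41 and 8.87 against 16.5, 16.03 and 15.3 CPM. Members of this family are similar in sequence, and reads may be shared between them. Hsd17b6, a hydroxysteroid dehydrogenase, stood at 35.9, 43.2 and 30.7 against 92.9, 114 and 123 CPM, a difference of -1.59 (SE 0.17). Akr1c19, an aldo-keto reductase, stood at 20.7, 12.3 and 16.2 against 36.8, 30.6 and 38.6 CPM. Abcc4, an exporter of bile acids and drug conjugates at the basolateral membrane, stood at 24.1, 28.03 and 23.5 against 54.9, 53.8 and 43.9 CPM, a difference of -1.06 (SE 0.12).

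Col4a4, a chain of basement membrane collagen IV, stood at 5.55, 3.63 and 7.96 CPM in the high and 19.5, 18.95 and 26.2 CPM in the low livers, a difference of -1.79 (SE 0.22). Eln, which encodes elastin, stood at 55.6, 46.8 and 80.2 against 132, 122 and 117 CPM, a difference of -0.97 (SE 0.17). For both, KO replicate 2 was the highest of the high livers, and the difference was larger within WT (-2.10 and -1.37) than within KO (-1.47 and -0.57). That contrast between genotypes was not tested. Nrep, a neuronal regeneration-related protein also found in fibroblasts, stood at 7.03, 5.02 and 8.19 against 23.2, 17.8 and 24.3 CPM. Meox1, a homeobox factor of mesoderm and activated fibroblasts, stood at 1.78, 2.30 and 2.81 against 4.91, 5.58 and 5.75 CPM. Krt23, a keratin of bile duct and injured liver epithelium, stood at 5.89, 5.93 and 6.67 against 10.5, 14.9 and 19.4 CPM. The group also held Adgrf1, an adhesion G protein-coupled receptor, at -1.67, Lrrc55, a leucine-rich auxiliary protein of potassium channels, at -1.53, and Dpysl4, a dihydropyrimidinase-like protein, at -1.12.

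**Figure D2:**
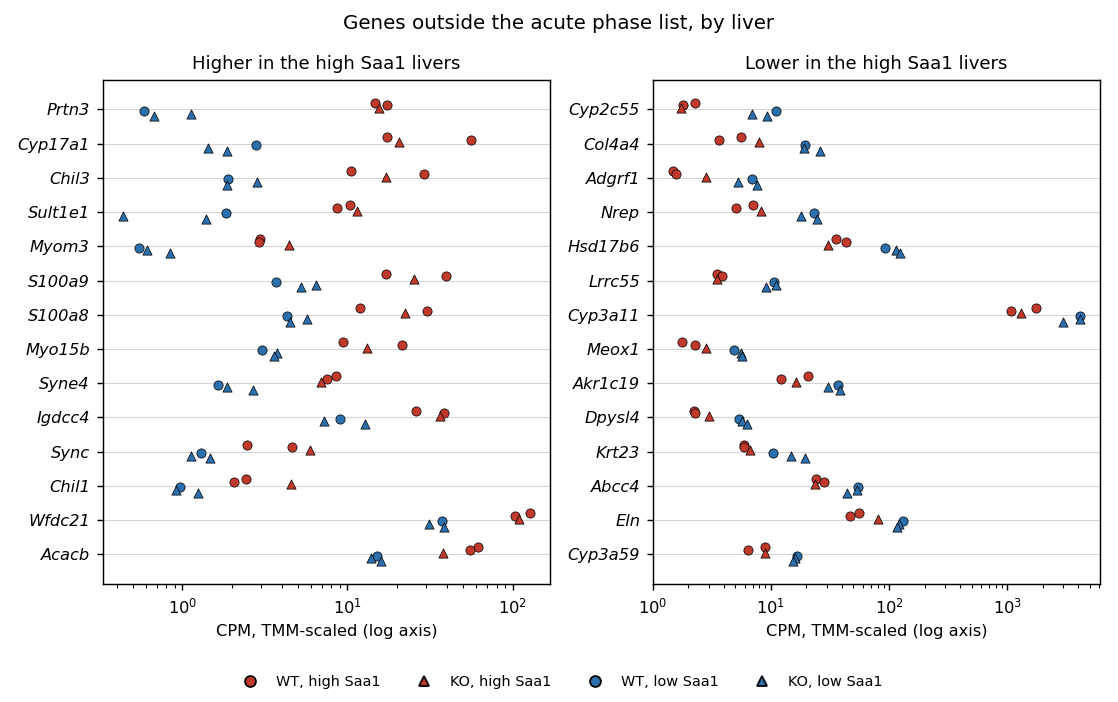
TMM-scaled CPM on a log axis (horizontal) in each liver for the 14 genes that lay higher (left) and the 14 that lay lower (right) in the high Saa1 livers, ordered from the top by the size of the log2 difference. Circles are WT, triangles KO, red high and blue low, and in every row the red and blue points stand apart, which the rule for naming genes required.

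The differences had the same sign within WT, where 2 high livers are set against 1 low liver, and within KO, where 1 is set against 2. For the 28 named genes the rule required this. It was also fixed for any gene without overlap, as 107 of the 109 called genes were, so the shared sign is no replication across genotypes. The size differed for some, as for Hsd17b6 at -1.24 within WT and -1.94 within KO, and Sult1e1 as given above.

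**Figure D3:**
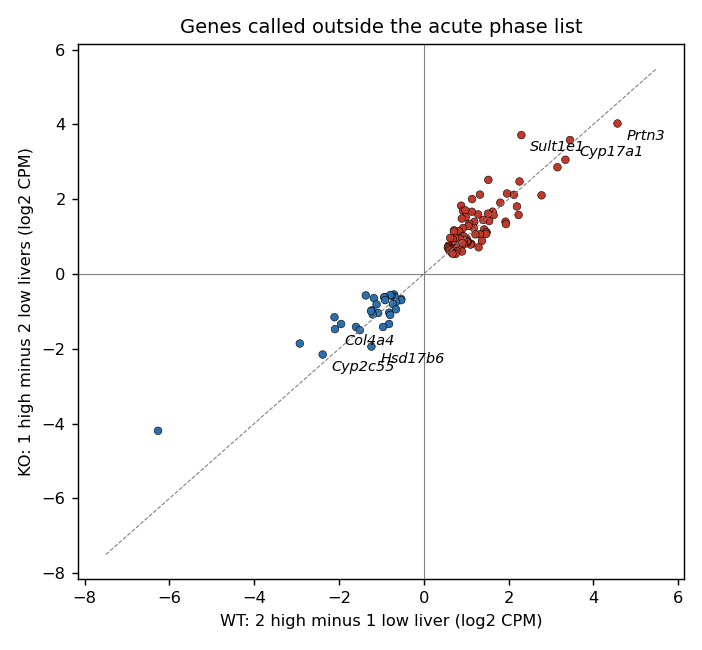
Each point is 1 of the 109 called genes outside the acute phase list, with its log2 difference between high and low livers within WT (horizontal) and within KO (vertical), red for higher and blue for lower genes, and a dashed line of equal differences. Prtn3 is at 4.57 and 4.02, Cyp2c55 at -2.39 and -2.15, and the lone point at the lower left is Gm21887 at -6.27 and -4.19.

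The sequence upstream of the named genes was searched for 3 short patterns that stand for the factors of the acute phase response, TTCNNNGAA for STAT, TTGCNNAA for C/EBP and the degenerate NF-kB consensus, on both strands of the 250 bases before the annotated start (RefSeq, GRCm38.p6). The 3 patterns can overlap, and they were chosen with the high-low differences known. Among all 32851 promoters of that length 7.02% held the STAT pattern, 9.56% the C/EBP pattern and 3.9% the NF-kB consensus. An entry was found for 12 of the 14 higher and 10 of the 14 lower genes. The STAT pattern was in 3 of the 12 (Chil3, Syne4 and Sync) and 1 of the 10 (Akr1c19), and the C/EBP pattern in 1 of the 12 (S100a9) and 2 of the 10 (Krt23 and Abcc4). The NF-kB consensus was in 2 of the 12 (Chil1 and Acacb) and 1 of the 10 (Krt23). All 4 acute phase marker genes (Saa1, by which alone the livers were sorted, Saa2, Orm2 and Lcn2) held the C/EBP pattern and none the STAT or NF-kB pattern. The upstream sequences of Saa1 and Saa2 are nearly the same, so their matches are not independent. A match is a stretch of letters and no evidence of binding. The sequences below run 5′ to 3′ on the gene's strand with each match in capitals, so that the positions can be compared. They are given for 2 of the acute phase markers and for 2 higher and 2 lower genes with a match.
Orm2 (chr4:63362199-63362448, plus strand): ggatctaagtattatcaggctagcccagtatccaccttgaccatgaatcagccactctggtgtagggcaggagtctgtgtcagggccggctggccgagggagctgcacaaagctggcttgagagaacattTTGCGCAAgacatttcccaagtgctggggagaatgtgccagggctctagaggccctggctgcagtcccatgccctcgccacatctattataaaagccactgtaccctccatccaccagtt
Lcn2 (chr2:32387740-32387989, minus strand): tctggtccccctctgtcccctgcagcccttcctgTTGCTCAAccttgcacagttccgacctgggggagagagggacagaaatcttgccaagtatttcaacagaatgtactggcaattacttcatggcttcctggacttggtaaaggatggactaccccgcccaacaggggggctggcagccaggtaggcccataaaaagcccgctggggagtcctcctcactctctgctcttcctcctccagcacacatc
S100a9 (chr3:90695722-90695971, minus strand): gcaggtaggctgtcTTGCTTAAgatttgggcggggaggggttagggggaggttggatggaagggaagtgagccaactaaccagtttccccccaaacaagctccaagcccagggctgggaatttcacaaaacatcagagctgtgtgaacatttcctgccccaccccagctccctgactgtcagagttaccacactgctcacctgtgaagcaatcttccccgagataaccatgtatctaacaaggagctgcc
Chil3 (chr3:106167565-106167814, minus strand): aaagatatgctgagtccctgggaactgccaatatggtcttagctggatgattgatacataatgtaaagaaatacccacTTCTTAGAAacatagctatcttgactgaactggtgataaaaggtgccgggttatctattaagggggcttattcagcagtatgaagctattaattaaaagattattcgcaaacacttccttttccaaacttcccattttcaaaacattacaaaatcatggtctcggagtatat
Krt23 (chr11:99493121-99493370, minus strand): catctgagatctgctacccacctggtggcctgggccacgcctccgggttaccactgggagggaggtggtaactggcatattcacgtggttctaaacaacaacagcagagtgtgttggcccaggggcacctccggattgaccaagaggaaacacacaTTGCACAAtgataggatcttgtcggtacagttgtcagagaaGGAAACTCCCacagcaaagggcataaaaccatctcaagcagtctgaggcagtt
Akr1c19 (chr13:4233490-4233739, plus strand): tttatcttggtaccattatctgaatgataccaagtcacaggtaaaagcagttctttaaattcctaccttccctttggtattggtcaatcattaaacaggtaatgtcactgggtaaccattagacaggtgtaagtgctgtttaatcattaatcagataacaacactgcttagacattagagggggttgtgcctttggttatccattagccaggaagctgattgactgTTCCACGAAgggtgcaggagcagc
The first base of the C/EBP match lies 120 bases before the start in Orm2, 216 in Lcn2, 236 in S100a9 and 94 in Krt23, and that of the NF-kB match 53 in Krt23. That of the STAT match lies 172 bases before it in Chil3 and 24 in Akr1c19.

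Neutrophil genes formed the list with the largest share of separated members. Of 25 listed genes 21 were tested, 19 of them lay higher without overlap and 0 lower, and the median difference was 1.97 against -0.01 over all genes. The summed level of the tested genes was 265 to 394 CPM in the high and 93.3 to 106 CPM in the low livers. Wfdc21, unlike the granule genes, was highest in WT replicate 1. Without it, and with the listed genes below the count filter added, the sum was 138 to 293 CPM in the high livers. In the low livers that sum was 56.2 to 72.3 CPM. Primary granule enzymes were among them, with Mpo (myeloperoxidase) at 5.55, 20.3 and 8.23 against 0.336, 1.48 and 1.34 CPM and Elane (neutrophil elastase) at 1.58, 5.12 and 2.24 against 0.042, 0.349 and 0.579 CPM. Secondary granule genes were as well, with Ltf (lactoferrin) at 8.07, 27.6 and 13.8 against 0.882, 3.05 and 2.90 CPM and Camp (cathelicidin) at 2.82, 6.79 and 2.88 against 0.336, 1.39 and 0.669 CPM. The chemokine receptor Cxcr2 stood at 3.12, 6.50 and 3.83 against 1.51, 1.39 and 0.847 CPM.

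WT replicate 3 was the highest liver for every tested neutrophil gene except Clec4d and Wfdc21, and edgeR called only Prtn3, S100a8, S100a9 and Wfdc21. Ly6g, Ctsg, Cxcr1 and Stfa2l1 were below the count filter. Ly6g, the defining surface marker of mouse neutrophils, lay between 0 and 0.645 CPM. In bulk RNA, more cells of a type and more RNA per cell cannot be told apart. Most red cell genes moved with the neutrophil genes: 5 of 7 tested lay higher without overlap and 0 lower. Their summed level was 332 to 871 CPM in the high and 200.5 to 248 CPM in the low livers. Hbb-bs (beta-globin) stood at 152, 435 and 157 against 80.2, 94.9 and 100.0 CPM, with WT replicate 3 the highest. The red cell marker Alas2 overlapped, at 44.5, 46.9 and 36.1 against 46.5, 54.9 and 43.8 CPM, a difference of -0.24. How much blood in the tissue has to do with the neutrophil values was not tested.

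Other immune lists separated the livers less or not at all. Of 15 monocyte genes 6 lay higher without overlap and 0 lower, while the monocyte receptor Ccr2 overlapped, at 31.9, 30.99 and 37.2 against 33.5, 29.9 and 36.7 CPM. Of 13 tested Kupffer cell genes 5 lay higher and 0 lower. Folr2, a folate receptor of resident macrophages, was the called one, at 17.9, 21.9 and 13.9 against 8.02, 8.76 and 8.11 CPM. The Kupffer cell marker Vsig4 lay higher without overlap, while the markers Clec4f, Timd4 and Marco overlapped. Clec4f stood at 102, 144 and 58.5 against 60.7, 67.6 and 24.1 CPM. The summed level of the Kupffer cell list overlapped too, at 840, 1414 and 709 against 706, 824 and 486 CPM. Dendritic cell and MHC class II genes lay lower in 5 of 16 and higher in 0, among them Ccr7 at 1.83, 0.813 and 1.67 against 2.98, 2.92 and 3.25 CPM and Xcr1 at 1.14, 1.20 and 1.52 against 2.06, 2.92 and 3.12 CPM. T and NK cell genes had 1 of 18 without overlap, B and plasma cell genes 1 of 12 and interferon-stimulated genes 2 of 35, shares below those over all genes with the 6 livers. Of the 35 interferon-stimulated genes 28 had a positive difference, and without WT replicate 3, 11 lay higher without overlap, against 14.8% of all genes.

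Complement genes outside the acute phase list lay higher in 17 of 23 tested and lower in 0, with a median difference of 0.47. C9, the pore-forming last component, stood at 532, 355 and 500.0 CPM in the high and 264, 281 and 336 CPM in the low livers, a difference of 0.72 (SE 0.17). The macrophage-made C1q chains lay higher too, with C1qa at 144, 222 and 163 against 112, 139 and 124 CPM. Of 24 clotting genes 10 lay higher and 2 lower. Cpb2, the fibrinolysis inhibitor TAFI, differed by 1.08 (SE 0.13), at 264, 342 and 398 against 158, 165 and 174 CPM, and Klkb1, prekallikrein, lay the other way at 72.4, 25.6 and 52.3 against 77.96, 73.9 and 74.96 CPM. Scaled by library size alone, 8 rather than 17 complement genes lay higher without overlap and the median kept its sign. By that scaling the higher share over all genes fell as well, from 10.6 to 5.12%.

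Genes of protein folding in the endoplasmic reticulum lay higher in 14 of 25 and lower in 0, by small amounts, with a median difference of 0.15. Creld2, a secreted ER stress protein, was the called one at 45.4, 41.2 and 42.2 against 25.7, 26.9 and 31.4 CPM, and Calr, the chaperone calreticulin, stood at 904, 899 and 909.5 against 684, 756 and 716 CPM. Target genes of the integrated stress response lay lower in 6 of 22 and higher in 0. Trib3, a pseudokinase induced by ATF4, stood at 29.9, 64.3 and 28.2 against 99.2, 82.3 and 78.7 CPM and Ddit3, the factor CHOP, at 14.8, 13.3 and 16.99 against 19.4, 23.1 and 20.3 CPM. Glycolysis and hypoxia genes lay higher in 12 of 27 and lower in 2, with Pkm (pyruvate kinase M) at 190.0, 271 and 219.9 against 133, 149 and 148 CPM. By library size alone the higher members were 7 of the folding list and 6 of the glycolysis list, against 5.12% of all genes.

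Xenobiotic-metabolizing P450 genes and their regulators lay lower in 10 of 27 and higher in 1, with a median difference of -0.63. Cyp2c29 stood at 83.2, 40.9 and 48.8 CPM in the high and 144, 145 and 118 CPM in the low livers, and Cyp1a2, the caffeine-metabolizing enzyme, at 242, 117 and 136 against 272, 242 and 244 CPM. Cyp3a13 lay the other way, at 168, 170.3 and 149 against 104, 104 and 114 CPM. Cyp2e1, the ethanol-inducible enzyme, overlapped, since WT replicate 1 had 2190.1 CPM and the low livers 2335, 2150.4 and 1924 CPM. The nuclear receptors that control many of these genes overlapped as well, with Nr1i2 (PXR) at 66.5, 68.97 and 53.5 against 62.8, 57.2 and 55.8 CPM and Nr1i3 (CAR) at 85.8, 33.8 and 49.7 against 54.4, 49.1 and 42.4 CPM.

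WT replicate 1 was the high liver closest to the low ones in genes such as Cyp2a5, at 192, 34.1 and 86.5 against 243, 222 and 262 CPM, and without it 18 rather than 10 P450 genes lay lower, where the share over all genes rose from 9.29 to 15.9%. Conjugating enzymes and transporters lay lower in 7 of 37 and higher in 2, and without WT replicate 1 lower in 28, against the same 15.9% of all genes. Among them were the glutathione transferases Gsta1 at 9.31, 2.92 and 4.25 against 16.5, 13.8 and 12.2 CPM and Gsta2 at 14.5, 3.35 and 5.23 against 19.5, 17.2 and 22.2 CPM. Sex-biased genes of the growth hormone axis lay lower in 5 of 22 male-biased (median difference -0.20) and 4 of 14 female-biased genes (-0.42), with 1 higher in each. Without WT replicate 3 the male-biased list had 5 lower and 5 higher and a median of -0.01, where 13.1% of all genes lay lower and 14.8% higher. Among the male-biased genes was Cyp4a12a, a male-specific P450, which stood at 11.7, 1.48 and 2.20 against 29.8, 12.98 and 12.8 CPM. Bile acid genes lay lower in 4 of 24 and higher in 1, including the paired subunits of the sterol exporter, Abcg5 at 40.01, 35.8 and 32.7 against 54.7, 67.3 and 120.2 CPM and Abcg8 at 59.6, 44.4 and 36.6 against 75.1, 90.8 and 149 CPM.

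Genes of the choline and methionine cycle, which the diet burdens, lay higher in 7 of 23 and lower in 0. The median difference of this list was only 0.04, and 14 of the 23 had a positive difference. Bhmt, which remethylates homocysteine with betaine made from choline, stood at 1879, 1607 and 1774 CPM in the high and 747, 810.1 and 893 CPM in the low livers, a difference of 1.14 (SE 0.13). Mat2a, a methionine adenosyltransferase, stood at 256, 223 and 318 against 198, 197 and 197 CPM. Nnmt, the nicotinamide methyltransferase, counts in this list and in the acute phase list, at 87.9, 112 and 67.04 against 34.3, 38.6 and 41.3 CPM. Fatty acid oxidation genes had 1 of 30 without overlap (Vnn1, higher), while 4 of 30 had a positive difference and the median was -0.20. Without KO replicate 3, 10 of the 30 lay lower, against 13% of all genes. Fatty acid synthesis genes lay higher in 6 of 23 and lower in 1, with Thrsp, a lipogenic nuclear protein, at 11.2, 5.26 and 12.5 against 2.98, 4.10 and 3.43 CPM.

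Collagen and matrix genes lay lower in 13 of 27 and higher in 1, with a median difference of -0.23. Col1a1 stood at 549, 615 and 622 CPM in the high and 831, 786 and 939 CPM in the low livers, a difference of -0.49 (SE 0.12). Col3a1, the other main fibrillar collagen of scar tissue, stood at 653, 725 and 775 against 1178, 944 and 1063 CPM, a difference of -0.57 (SE 0.13). Neither was called, and Eln and Fbn1 (fibrillin-1) were. Fn1, fibronectin, which hepatocytes also secrete into plasma, was the one that lay higher, at 3894, 4212 and 3554 against 2436, 2609 and 2457 CPM. The stellate cell markers Des, at 14.5, 14.6 and 14.98 against 15.3, 14.4 and 14.5 CPM, and Dcn, at 322, 369.6 and 424 against 394, 334 and 320.0 CPM, overlapped.

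Other mesenchymal genes went with the collagens in part. Myofibroblast genes lay lower in 4 of 19 and higher in 1, led by Cdh11 (cadherin-11) and Itga8, the integrin alpha 8 of myofibroblasts, at 66.6, 58.3 and 92.2 against 141, 126 and 166 CPM. Of 20 genes of quiescent stellate cells 5 lay higher and 2 lower, with the vitamin A storage enzyme Lrat at 52.6, 64.7 and 47.2 against 43.5, 36.4 and 36.5 CPM. Bile duct genes lay lower in 8 of 19 and higher in 0, with Epcam at 18.03, 24.4 and 29.05 against 32.3, 33.3 and 35.6 CPM and Pkhd1 (fibrocystin) at 171, 168 and 250.3 against 251, 272 and 369 CPM. The bile duct markers Krt19, at 13.02, 15.6 and 19.1 against 17.6, 18.9 and 22.1 CPM, and Sox9, at 42.4, 46.4 and 63.1 against 52.8, 56.03 and 55.1 CPM, overlapped, with KO replicate 2 the highest of the high livers in both. Without KO replicate 2, 14 of the 19 bile duct genes lay lower, and so did 18% of all genes. Krt23 was the only called gene of this list.

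**Figure D4:**
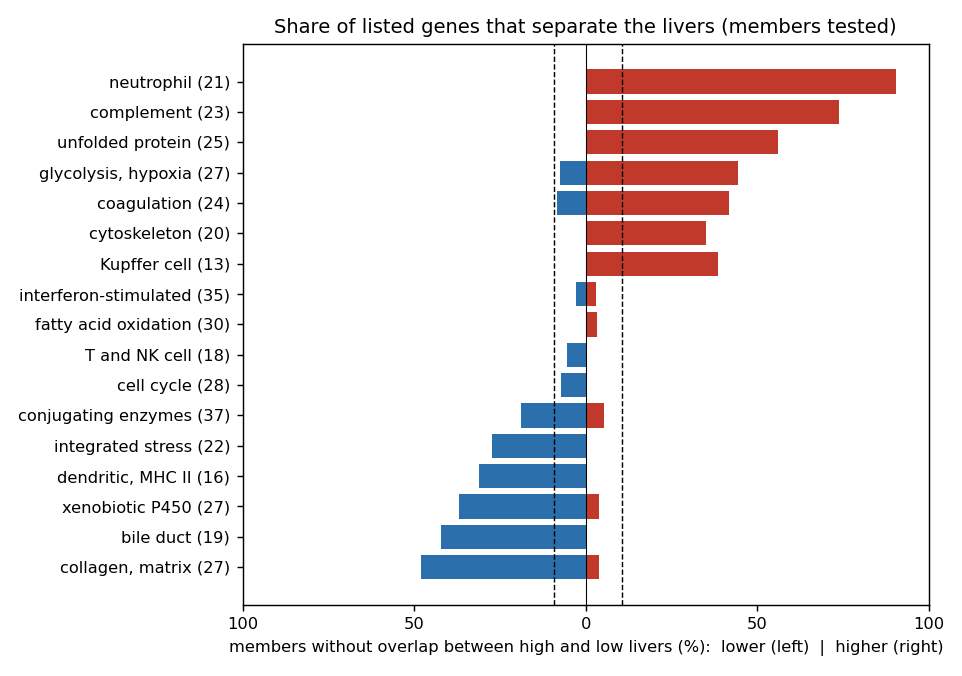
Share of the tested members (number in brackets) of 17 gene lists that lay higher (red, to the right) or lower (blue, to the left) in the high livers without overlap, in percent. Dashed lines mark the shares over all genes, 10.6% higher and 9.29% lower, and neutrophil and complement genes exceed the right line most while collagen and matrix genes exceed the left one most.

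Genotype comes from the labels and not from the sort, so it can be tested in the same fit. With the high or low state as a term, edgeR called 0 of 17083 genes between KO and WT (0% called), and the smallest adjusted p was 0.929. Before adjustment 826 genes had a p under 0.05, 455 higher and 371 lower in KO. Without the term it also called 0, with a smallest adjusted p of 0.850 and 886 genes under 0.05 before adjustment. DESeq2 called 12 with the term. For the 28 named genes the difference between KO and WT beside the split ran from -0.80 to 0.69 with a median of 0.09, and none passed edgeR's test. The rule for naming required no overlap across a split that mixes the genotypes. That left little room for a large genotype difference in these genes, so nothing is read from it. Ephb2 itself differed by -0.33 (SE 0.16) between KO and WT with the split as a term and by -0.46 (SE 0.21) without it, and neither passed edgeR's test (adjusted p = 0.929 and 0.850).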

How the data were processed

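The authors deposited raw counts per Ensembl gene for 6 liver libraries. Per the labels' protocols, polyadenylated RNA was made into directional libraries. Per the submitters' processing notes, the tools were STAR 2.7.6a, featureCounts 1.6.3 and DESeq2 1.30.0 on GRCm38 (mm10), with no role stated for any. Annotation release, filters and strand setting were not given in the sources used here, so antisense pairs and near-identical genes may share reads. Symbols and positions came from GENCODE M21, which lacked 3333 of 55416 IDs.

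From the counts, edgeR 4.0.16 in R 4.3.3 was run with TMM scaling, filterByExpr (minimum count 10, total 15), genotype and the Saa1 split as terms, glmQLFit and glmQLFTest, and Benjamini-Hochberg adjustment at 0.05 over 17083 genes. An SE is the log2 difference divided by the square root of the quasi-likelihood F. Differences within a genotype used log2 CPM with a prior count of 2. edgeR's common coefficient of biological variation was 0.138, and differences had a median SE of 0.15. All pairs of libraries differed by more than sampling noise. The procedure was tested on simulated data.

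The split, the 57 gene lists and the rule for naming genes were chosen with earlier results of these data known. The rule took, outside the acute phase lists, called genes with an established symbol, a mean of at least 2 CPM, no overlap and the same sign within WT and within KO, the 14 largest differences per direction. It also took from each list the 2 members without overlap that differed most. Some genes that the rule takes are not reported here. Other members named from a list, and markers that overlap, were chosen after their values were seen, as were the promoter patterns. A search of 300 bases per promoter came first and was shortened to the 250 before the start, and the counts of a looser NF-kB pattern searched over both lengths are not reported here; the consensus was searched last. Same-numbered replicates did not deviate together between genotypes, but each such pair held a high and a low liver. That check cannot show whether the numbers pair the samples. Alternatives were other scalings, filters, DESeq2 1.42.0, limma-voom (limma 3.58.1), a continuous Saa1 term, no genotype term, the replicate number as a block and leaving out each library.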

Additional observations from a re-analysis of the deposited data

How the results depend on the processing

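Of the 109 genes called between high and low livers outside the acute phase list, the count was 221 at an adjusted p under 0.1, 171 without the genotype term, 258 with no filter on low counts and 422 by DESeq2. It was 73 to 104 under the other scalings, the stricter filter, limma-voom, a continuous Saa1 term and without the 20 most abundant and mitochondrially encoded genes. By library size alone 57 were higher and 38 lower, against 77 and 32 with TMM. Leaving out 1 library gave 0 (without KO replicate 2) to 535 (without WT replicate 1) calls. For the same-numbered pairs the correlation of deviations between genotypes was -0.03, -0.44 and -0.31. Each such pair held a high and a low liver, so these values cannot tell whether the numbers pair the samples. With the replicate block 9 genes were called. The genes without overlap numbered 3357 and ran from 4642 to 6090 when 1 library was left out, where fewer samples have to stand apart. Scaling by upper quartile gave 1389 higher and 1993 lower. Between genotypes with the split as a term, the 0 calls became 2 with no filter and 12 by DESeq2, and 0 to 7 with 1 library left out, 7 being without WT replicate 3. The cause of these changes was not tested. The differences of 124 named genes, whose sign the choice of genes without overlap largely fixes, moved by more than the spread between replicates for 38 genes without KO replicate 2, 34 without WT replicate 2, 10 by library size alone and 2 without the genotype term. With 3 libraries a side, the median SE of 0.15 limits what can be called.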

Other observations

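Apart from Ltbp2, which the rule for naming took from a gene list, the called genes of this paragraph lay outside that rule. They were chosen after their values were seen. Dio1, the deiodinase that activates thyroid hormone, stood at 159.7, 133 and 151 CPM in the high and 54.99, 54.4 and 56.5 CPM in the low livers, a difference of 1.43 (SE 0.10). Serpina12, the serpin vaspin, differed by 1.47 (SE 0.15) and Scara5, a ferritin receptor, by 1.62 (SE 0.14). The sialyltransferases St6gal1 and St3gal1, which cap glycans of secreted and membrane proteins, stood at 194, 241 and 216 against 111, 111 and 119 CPM and 219, 236 and 230.2 against 121, 146 and 116 CPM. In the lower direction Ltbp2, a latent TGF-beta binding protein of elastic fibres, stood at 42.3, 52.5 and 58.2 against 75.4, 84.5 and 95.7 CPM, and Leap2, the liver peptide that opposes ghrelin, at 13.5, 16.5 and 10.3 against 26.3, 24.6 and 18.3 CPM.

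The largest fitted difference of the 109 called genes was in Gm21887 on chromosome X, a predicted gene that the rule for naming leaves out. It stood at 0.099, 0.0957 and 0.265 CPM in the high and 14.2, 4.62 and 8.78 CPM in the low livers, a difference of -5.94 (SE 0.50). How its reads are shared with similar copies was not analysed here. Prtn3 differed little among the high livers, with 1.20-fold between the highest and the lowest, while the other granule enzyme genes Mpo and Elane stood at 5.55, 20.3 and 8.23 and 1.58, 5.12 and 2.24 CPM there. The GENCODE M21 gene Prtn3 begins at 79874476 on chromosome 10, upstream of the 250 bases before the RefSeq start, which run from 79879417 to 79879666.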
